A study of Auricularia auricula-judae with 2 samples.

Results

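Core histone genes were followed in fruit bodies of Auricularia auricula-judae, an edible fungus called wood ear, grown from gamma-irradiated and unirradiated mycelium. The genes taken were assembled genes whose Swiss-Prot description opens with histone H2A, H2B, H3 or H4, with isoforms summed per gene, and with 100 or more scaled reads over both libraries. Scaled reads are the pair of values per transcript from which the authors took their fold change. Their unit is not named, and they were taken here as read numbers adjusted by a factor for each library. The rule found 9 genes among 8249 assembled genes with that many scaled reads, out of 43428 assembled genes in all. A further 44 histone genes were matched by description but had fewer reads. The members and lists were chosen with earlier results of these data known, so every value here is a description.

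RNA came from homogenised fruit bodies of 2 groups with 1 library each. In the irradiated group the mycelium received 200 Gy of gamma radiation on agar, and in the control group it received none. All mycelium had 14 days of agar culture at 25 °C before that point, then 30 days at 25 °C on sawdust mixed with rice bran (8 to 2 by weight), and fruited at 18 °C and 90% humidity. The libraries describe fruit bodies formed after the exposure, and with 1 library per group no difference has a replicate check and no p-value was computed. The FPKM values (fragments scaled to transcript length and library size) summed to 983895 in the irradiated library and 970111 in the control library. Read totals are not given in the sources used, and the authors' second and first scaled values summed to 8404057 and 8872431. Genes described as fruiting body proteins were present. With no other tissue to compare, their presence cannot check the tissue label. The most abundant (SC7, TBIU011590) had 256.05 FPKM in the irradiated library and 137 FPKM in the control library. The others matched had lower levels. SC3 (TBIU005515) had 32.73 FPKM in the irradiated library and 39.73 FPKM in the control library. Another SC7 gene (TBIU010424) had 11.02 FPKM in the irradiated library and 8.99 FPKM in the control library. In bulk tissue, fewer cells that express a gene and less RNA per cell cannot be told apart.

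Core histones are the proteins around which DNA is wrapped in the nucleosome, which holds a pair of H3-H4 dimers and a pair of H2A-H2B dimers. In yeasts and animals most of their mRNA is made while DNA is being copied, so that new DNA can be packaged at once. Histones are also part of the response to radiation: in budding and fission yeast, H2A near a broken DNA end is phosphorylated, and nucleosomes are taken apart and rebuilt around the repair site. Each symbol below is that of the closest Swiss-Prot entry, which can belong to a distant organism.

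Most of the histone mRNA was at a lower level in the irradiated library than in the control library. Of the 9 members, 8 had a lower FPKM in the irradiated library, 5 of them at least 2-fold lower, and 0 were at least 2-fold higher. Because the minimum is a sum over both libraries, a gene can pass it through the library where it is higher. The HHT2 gene TBIU014972, at least 2-fold lower, had 42.66 scaled reads in the irradiated library and 175 in the control library. Over all 8249 genes tested, the share at least 2-fold lower was 8.68%, the share at least 2-fold higher was 9.32%, and 44.1% had a ratio below 0. The members' median log2 ratio, irradiated over control and computed from FPKM + 1, was -1.28, with a range of -1.93 to 0.59, and the median of all genes tested was 0.10. With that median subtracted from every ratio, the members' counts stayed at 5 and 0, while over all genes tested 853 in place of 716 lay beyond 2-fold lower and 598 in place of 769 beyond 2-fold higher. The 95% counting interval of the ratio of scaled reads lay wholly below 0 for 7 of the 9, against 34.8% of all genes tested, and wholly above 0 for 1, against 38.6%. Such an interval covers counting error only, with no allowance for how fruit bodies or library preparations vary. The ratio of scaled reads differs a little from that of FPKM + 1, so a log2 ratio given here can lie outside the interval given with it. Among members with 500 or more scaled reads, 3 of 5 were at least 2-fold lower, and 7.31% of all genes with that many reads were. HHT2 genes TBIU014973 and TBIU051595 reached 500 mainly through the control library, with 417 and 540 scaled reads there. In the irradiated library they had 131 and 214, so the stricter minimum is no independent check. With the genes of each assembly cluster summed, 3 of 8 clusters were at least 2-fold lower and 1 was higher, with a median of -0.68, and with no minimum of reads the median of all 53 matched genes was 0.59. The matching shares and medians over all clusters, or over all genes with no minimum, were not computed.

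**Figure D1:**
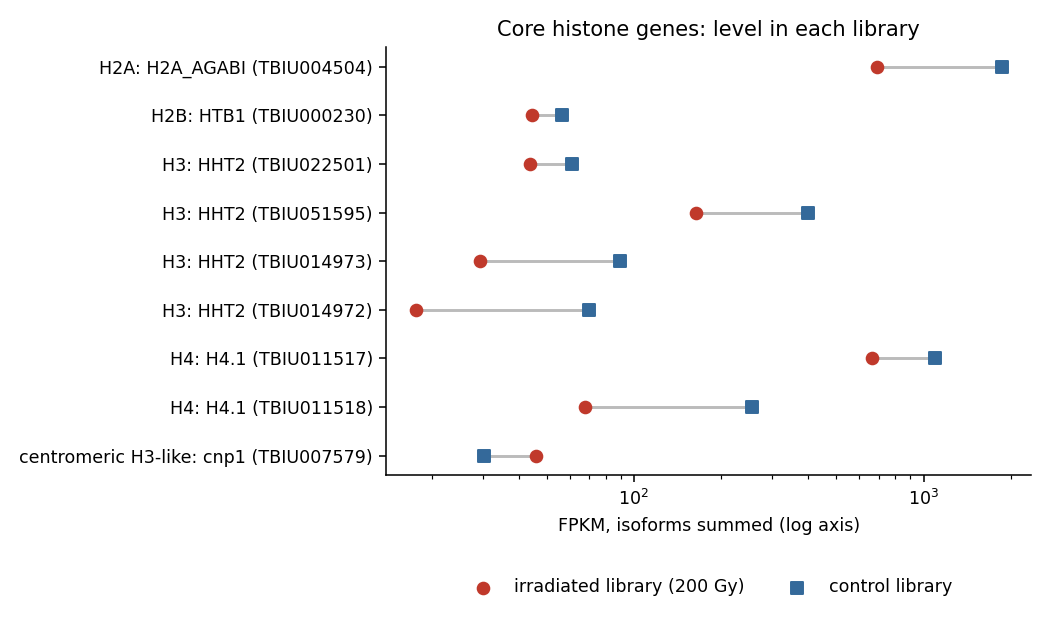
FPKM of each of the 9 core histone genes (horizontal, log axis) in the irradiated library (circles) and in the control library (squares), 1 library each, grouped by histone. The circle lies left of the square for 8 genes, and right of it for the centromeric H3-like gene cnp1, at 46.04 FPKM in the irradiated library and 30.2 FPKM in the control library.

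Histone H2A, which forms the dimer with H2B, gave the most abundant member. The gene H2A_AGABI (TBIU004504), named after its match in the button mushroom, had 692 FPKM in the irradiated library and 1864 FPKM in the control library. Its log2 ratio was -1.43, with the FPKM 2.69-fold higher in the control. Its 13080 scaled reads gave a counting interval of -1.55 to -1.44. By FPKM it ranked 147th among the genes tested in the irradiated library and 33rd in the control library. Only 4.36% of the genes tested had a lower log2 ratio.

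Histone H4, the partner of H3, had 2 members in the same assembly cluster. The more abundant H4.1 gene (TBIU011517) had 662 FPKM in the irradiated library and 1095 FPKM in the control library, a log2 ratio of -0.73. Both of its isoforms were lower: TBIU011517 had 488 FPKM in the irradiated library and 789.51 FPKM in the control library, and TBIU011516 had 174 FPKM in the irradiated library and 305 FPKM in the control library. The second H4.1 gene (TBIU011518) had 67.9 FPKM in the irradiated library and 255 FPKM in the control library, a log2 ratio of -1.89. The counting intervals of the pair did not overlap, at -2.29 to -1.64 for the second gene and -0.89 to -0.73 for the first. The FPKM ratio of the first gene lay just outside its interval. The reads that these genes share were not examined.

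Histone H3, whose tail carries many of the modifications that mark active and silent chromatin, had 4 members, all described as HHT2. The HHT2 gene with the highest FPKM (TBIU051595) had 164 FPKM in the irradiated library and 401 FPKM in the control library, a log2 ratio of -1.28. HHT2 genes TBIU014973 and TBIU014972, of 1 assembly cluster, had 29.4 and 17.6 FPKM in the irradiated library, against 89.4 and 69.8 FPKM in the control library, with log2 ratios of -1.57 and -1.93. The last is the lowest ratio among the members. In TBIU014972 the isoform TBIU014971 went the other way, at 2.5 FPKM in the irradiated library and listed at 0 in the control, on 6.36 scaled reads. The HHT2 gene with the most reads (TBIU022501) had 43.9 FPKM in the irradiated library and 60.9 FPKM in the control library, with a log2 ratio of -0.47 and -0.68 to -0.43 as its counting interval. All 4 H3 genes had the lower level in the irradiated library, and the interval of TBIU022501 did not overlap those of the other 3.

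The TBIU022501 transcript also stood apart in length. The authors' first scaled value, divided by the control FPKM that it follows and by its sum over all transcripts, gave an implied length of 2.35 kb for it. For the other 8 members the implied length ran from 0.114 to 0.584 kb, with 0.584 kb for H2A_AGABI and 0.152 kb for HHT2 TBIU051595. Should the authors' tool have subtracted the fragment length, which no label states, these are effective lengths and shorter than the transcripts. Whether the short assemblies are pieces of fewer genes, and what else the long one holds, was not tested, since no sequence was used here. By assembly name the 9 members fall into 7 clusters.

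Histone H2B had 1 member, with few reads. The HTB1 gene (TBIU000230) had 44.5 FPKM in the irradiated library and 56.3 FPKM in the control library, a log2 ratio of -0.33, and its counting interval of -0.97 to 0.22 covered 0. With 100.5 scaled reads it was also the member just inside the minimum. The genes just outside were another HTB1 gene (TBIU021637) with 90.95 scaled reads and an H2A gene, HTA1 (TBIU019290), with 88.83. Summed with the other H2B genes of its assembly cluster, TBIU021637 had 109.36 scaled reads, more than the member. That cluster had 35.8 FPKM in the irradiated library and 7.79 FPKM in the control library, a log2 ratio of 2.06.

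The centromeric H3-like gene was the exception in direction. This variant, called cnp1 in fission yeast and CSE4 in budding yeast, replaces H3 in the nucleosomes on which the kinetochore is built. The gene (TBIU007579) had 46.04 FPKM in the irradiated library and 30.2 FPKM in the control library, with a log2 ratio of 0.59 and 0.20 to 0.88 as its counting interval. Its main isoform had 38.3 FPKM in the irradiated library and 26.3 FPKM in the control library. Of the minor isoforms, both described as CSE4, TBIU007578 had 5.99 FPKM in the irradiated library and 1.56 FPKM in the control library, and TBIU007580 had 1.76 FPKM in the irradiated library and 2.37 FPKM in the control library. Without this gene the median of the other 8 members was -1.36, with a range of -1.93 to -0.33.

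**Figure D2:**
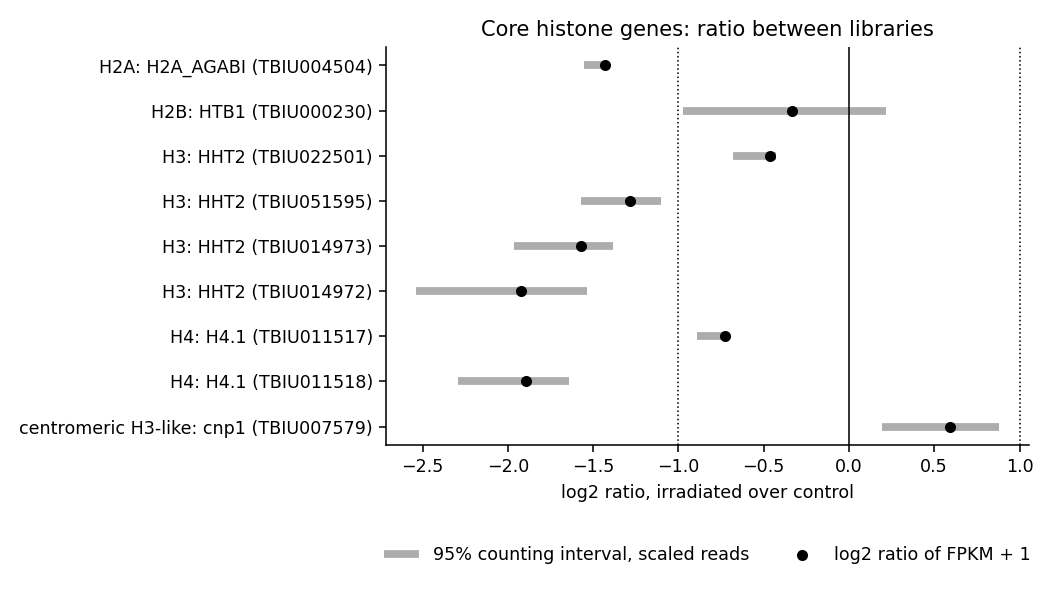
Log2 ratio of irradiated over control for each core histone gene from FPKM + 1 (points), with the 95% counting interval of the ratio of scaled reads (bars). Dotted lines mark a 2-fold difference. The bars of 5 genes lie wholly beyond 2-fold lower, that of HTB1 covers 0, and that of cnp1 lies above 0.

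In the authors' deposited table the 13 transcripts of these 9 genes had p-values from 0.199 to 0.912, and H2A_AGABI (TBIU004504) had a log2 fold change of -1.5 with a p-value of 0.454. The q-value in the authors' deposited table was 1 for every transcript. No label names the test behind these values.

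Summed over all matched transcripts, including those with few reads, the histone classes differed in how far the libraries were apart. H2A summed to 731 FPKM in the irradiated library and 1883 FPKM in the control library. H4 summed to 769.52 FPKM in the irradiated library and 1381 FPKM in the control library. H3 without the centromeric gene summed to 379 FPKM in the irradiated library and 799 FPKM in the control library. For these 3 classes the irradiated library held the lower sum. H2B summed to 138 FPKM in the irradiated library and 129.7 FPKM in the control library, and the counting interval of its log2 ratio of scaled reads, -0.07 to 0.63, covered 0.

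The described transcripts were unequal in level between classes, although nucleosomes hold the 4 core histones in equal number. The summed FPKM of H2A was 5.30 times that of H2B in the irradiated library and 14.5 times in the control library. The H2B sum rests on short assemblies. In the control library HTB1 TBIU000230 (implied length 0.114 kb) gave 56.3 and htbA TBIU061519 (0.054 kb) 56.35 of its 129.7 FPKM. In scaled reads the classes lay further apart: 3512 for H2A and 154 for H2B in the irradiated library, and 9677 and 127 in the control library. H2A was 0.95 times H4 in the irradiated library and 1.36 times H4 in the control library. No abundant H2B transcript was matched by description, and 35862 of 57717 transcripts carry no description, so an undescribed H2B transcript would not be counted. As a share of summed FPKM, the core histones together held 0.21% in the irradiated library and 0.435% in the control library.

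**Figure D3:**
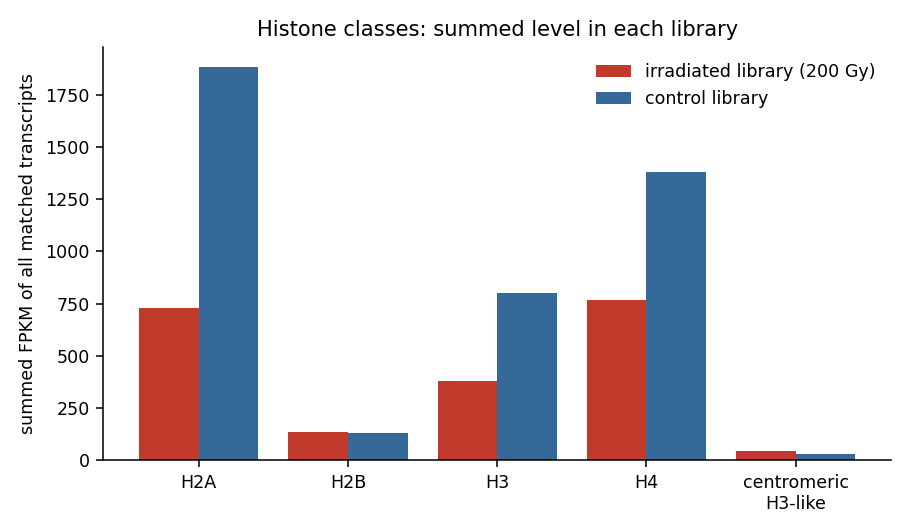
Summed FPKM of all transcripts matched to each histone class, in the irradiated library (left bar of each pair) and the control library (right bar). H2A reaches 731 FPKM in the irradiated library and 1883 FPKM in the control library, and H2B reaches 138 FPKM in the irradiated library and 129.7 FPKM in the control library.

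The 44 histone genes under 100 scaled reads did not show the lower level of the members. They included 18 H3, 11 H4, 10 H2B and 5 H2A genes, of which 38 had under 20 scaled reads. Of the 44, 28 were higher and 16 lower in the irradiated library, 6 had no FPKM above 0 in the irradiated library, and 18 had none in the control library. Those shares, 13.6% and 40.9%, compare with 28.5% and 35% of all genes under 100 scaled reads. How many of all such genes were higher or lower was not computed. The 28 and 16 are therefore not read as a trait of histone genes. Together they summed to 297 FPKM in the irradiated library and 303 FPKM in the control library, and the 9 members held 97.6% of all scaled reads of matched histone genes.

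The low-read genes with the most reads went both ways. HTA1 (TBIU019290), an H2A gene of 4 isoforms, had 22.6 FPKM in the irradiated library and 2.79 FPKM in the control library, with a log2 ratio of 2.64 and 1.78 to 3.68 as its counting interval. HTB1 (TBIU021637), an H2B gene, had 16.5 FPKM in the irradiated library and 7.79 FPKM in the control library, a log2 ratio of 0.99. HHT2 (TBIU014970), an H3 gene of the same assembly cluster as the members TBIU014972 and TBIU014973, had 12.4 FPKM in the irradiated library and 2.63 FPKM in the control library. These 3 genes had counting intervals wholly above 0.

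H4.1 (TBIU011614) and htbA (TBIU061519), an H2B gene, were lower. H4.1 TBIU011614 had 7.7 FPKM in the irradiated library and 21.7 FPKM in the control library, with a counting interval of scaled reads of -1.73 to 0.14. The gene htbA had 16.6 FPKM in the irradiated library and 56.35 FPKM in the control library, with a log2 ratio of -1.71 and a counting interval of -3.10 to -0.58, wholly below 0. Of the 6 histone genes with 20 to under 100 scaled reads, 2 lay beyond 2-fold on the higher side and 2 on the lower side. Among all genes in that range the higher side held 15.1% and the lower side 17.6%.

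**Figure D4:**
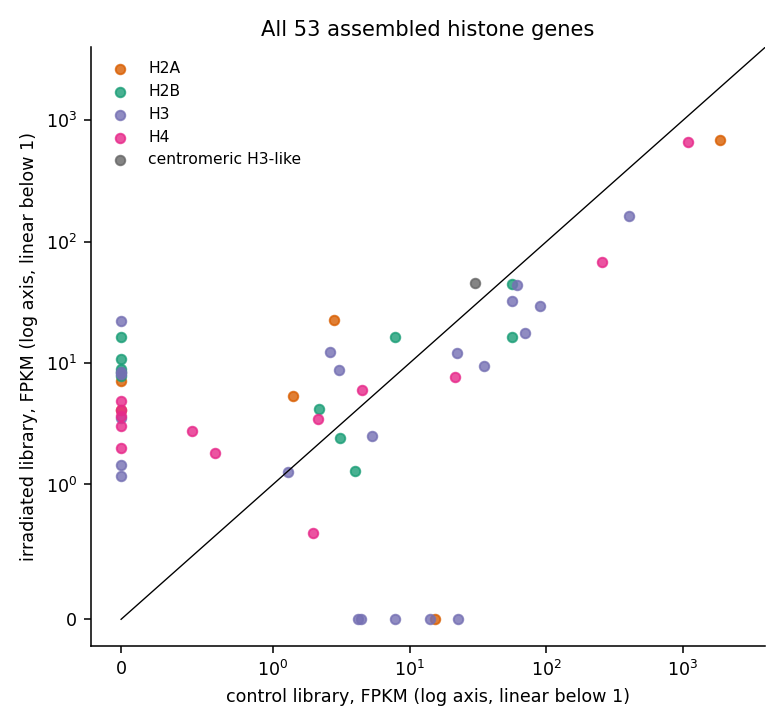
FPKM of all 53 assembled histone genes, with the irradiated library on the vertical axis and the control library on the horizontal axis, on log axes that are linear below 1, by class. Below the line of equality lie all 8 members other than the centromeric H3-like gene, and of the 44 genes with few reads 18 lie on the left edge at 0 in the control.

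Histone chaperone genes were higher in the irradiated library in 5 of 6 cases, against 55.9% of all genes tested. These chaperones deposit histones on DNA and remove them, and the 6 genes had 100 or more scaled reads. Of the 6, 1 lay beyond 2-fold higher and 0 beyond 2-fold lower, with 0.61 as the median log2 ratio. Over all genes tested, 9.32% reached 2-fold on the higher side and 8.68% on the lower side. Chromatin assembly factor 1 subunit chaf1a-b (TBIU024092), of the complex that places new H3 and H4 behind the replication fork, had 16.2 FPKM in the irradiated library and 5.97 FPKM in the control library, a log2 ratio of 1.30. POB3 (TBIU024191), a subunit of the FACT complex that loosens nucleosomes for polymerases, had 216 FPKM in the irradiated library and 118 FPKM in the control library. The HIR1 genes, of a complex that in yeasts also holds histone gene transcription down, had log2 ratios of -0.40 (TBIU057817, counting interval -0.84 to -0.11) and 0.52 (TBIU011772, counting interval 0.32 to 0.58). No gene was described as linker histone H1.

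Enzymes that modify histones were looked at by type. Of 3 acetyltransferase genes, HAT1 (TBIU005102), which in yeast acetylates newly made H4, had 49.6 FPKM in the irradiated library and 21.8 FPKM in the control library, a log2 ratio of 1.15. Tip60 (TBIU013215), of a complex that acts on H4 and H2A in DNA repair, had 52.8 FPKM in the irradiated library and 52.03 FPKM in the control library. All 6 deacetylase genes were within 2-fold, with log2 ratios of 0.21 to 0.74. Most of the 8249 genes tested were within 2-fold too, since 769 reached 2-fold on the higher side and 716 on the lower side. The most abundant deacetylase gene was HDAC2 (TBIU013412), at 152 FPKM in the irradiated library and 95 FPKM in the control library. Of 8 methyltransferase and demethylase genes, 1 lay beyond 2-fold in each direction, and the median log2 ratio was 0.01. The lower was a gene matched to the methyltransferase Prdm9 (TBIU011015), with 64.02 FPKM in the irradiated library and 421 FPKM in the control library, and the higher was Kdm8 (TBIU007846), with a log2 ratio of 1.04 that comes within 2-fold once the median of all genes tested, 0.10, is subtracted. The genes set9 (TBIU018950) and DOT1 (TBIU010521) had log2 ratios of -0.89 and -0.48. In the other direction, ezh2 (TBIU022903) and clr4 (TBIU026958) had log2 ratios of 0.74 and 0.40. Of the 8 genes, 4 were higher and 4 lower in the irradiated library, and 55.9% of all genes tested were higher.

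DNA replication genes, whose products work when histones are in demand, were above the control in the greater part. Of 32 genes, 6 lay at or beyond 2-fold higher and 1 beyond 2-fold lower, 26 had a ratio above 0, and the median log2 ratio was 0.48. Over all genes tested, 9.32% were at least 2-fold higher and 55.9% had a ratio above 0. With the median of all genes tested subtracted from every ratio, 3 of the 32 lay beyond 2-fold higher and 25 had a ratio above 0, against 598 and 4124 of the 8249 genes tested. Among the highest were flap endonuclease FEN11 (TBIU023028, log2 ratio 1.91), the GINS subunit PSF2 (TBIU007775, 1.36) and the helicase subunit mcm2 (TBIU010882, 1.21). Mcm2, which in yeast also binds H3 and H4 at the fork, had 37.03 FPKM in the irradiated library and 15.5 FPKM in the control library. The lowest were the GINS subunits SLD5 (TBIU006772, -1.40) and PSF1 (TBIU015005, -0.83) and a ribonucleotide reductase small chain (MVA032L, TBIU001145, -0.40). The most abundant, the ribonucleotide reductase small chain rnr-2 (TBIU021377), had 367 FPKM in the irradiated library and 228 FPKM in the control library. Among genes that passed the minimum of scaled reads, core histones had a median of -1.28 and replication genes one of 0.48. These lay on opposite sides of the median of all genes tested, and this difference was not tested. It depended on the minimum. With a minimum of 20 the medians were -0.77 for core histones and 0.41 for replication genes. With no minimum both were above 0, at 0.59 and 0.68, and the median of all genes was not computed there.

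**Figure D5:**
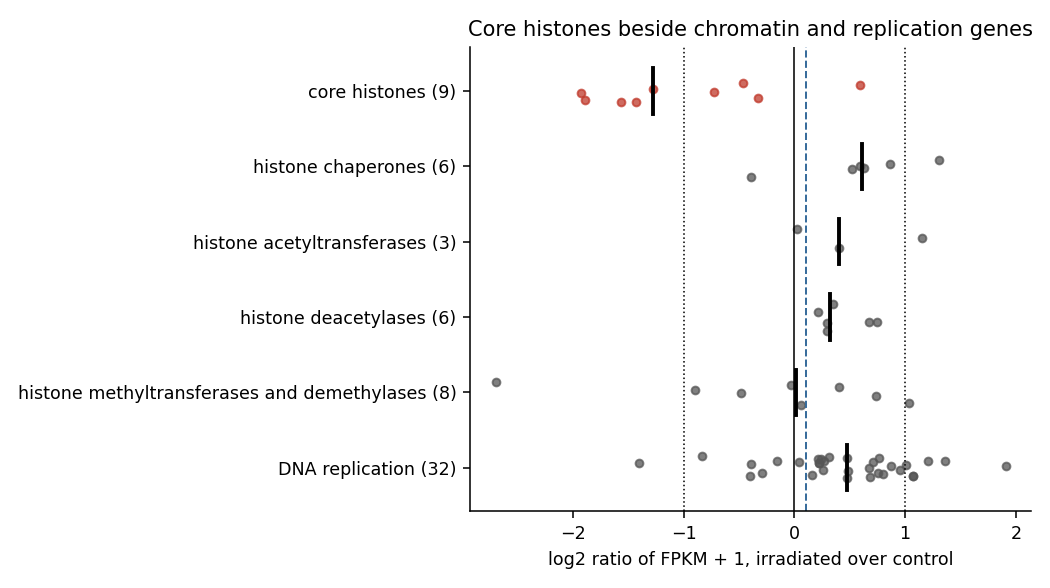
Log2 ratios of FPKM + 1, irradiated over control, for core histone genes and for lists of chromatin and replication genes with 100 or more scaled reads, with the number of genes in brackets. Black bars are list medians, from -1.28 for core histones to 0.61 for histone chaperones, the dashed line is the median of all genes tested at 0.10, and dotted lines mark 2-fold.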

How the data were processed

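Fruit bodies were profiled by RNA-seq in 1 irradiated and 1 control library, each matched to its column by the sample description in the header. FPKM values were made by the authors, per the file headers, and are given per assembled transcript to 2 decimals. The deposited table also holds a pair of values per transcript with no unit or sample name, here called scaled reads, whose log2 ratio is the authors' fold change. The second of the pair was set against the irradiated FPKM: its log2 ratios lie a median of 0.07 from those of FPKM, against 1.07 if exchanged. The log2 fold change, p-value and q-value columns were computed by the authors, per the file headers. No source used names the assembler, aligner or counting tool. Per the labels' protocols, 1000 ng of RNA was used for each library.

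Isoforms were summed per assembled gene, a minimum of 100 scaled reads was set, and log2 ratios were computed from FPKM + 1. The 95% intervals are exact Clopper-Pearson intervals on rounded scaled reads and cover counting error only. With 1 library per group no test was run. The counting and the intervals were tried on simulated counts that held counting error only. That trial used ratios of counts in place of FPKM + 1, and it says nothing of variation between fruit bodies or libraries. Companion lists were matched by description text. Every core histone gene, the 5 low-read ones with most reads, and list members at least 2-fold apart (the 3 highest and 3 lowest where more than 5) with the most abundant were named. Others named beside them were chosen after their values were seen. Members and lists were chosen with earlier results of these data known. Python 3.11.15, pandas 2.3.3 and scipy 1.17.1 were used.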

Additional observations from a re-analysis of the deposited data

How the results depend on the processing

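No paired analysis was possible because each group had 1 library, and leaving out a replicate was not possible for the same reason. Median-centred ratios, FPKM + 0.1 or + 5, ratios of the scaled values and the best-covered isoform by itself left the counts at 5 genes at least 2-fold lower and 0 higher, with medians of -1.39 to -1.26. So did leaving out the centromeric gene, the long HHT2 transcript or the HTB1 gene nearest the minimum, each chosen after seeing the data, with a median of -1.36. The minimum of scaled reads, a sum over both libraries, mattered most. With no minimum, 23 of 53 histone genes lay beyond 2-fold higher and 15 beyond 2-fold lower, and the median turned to 0.59. Of the genes so added, 38 had under 20 scaled reads, and the cause of the turn was not tested. Shares over all genes or clusters were not computed with no minimum, with a minimum of 20 or with clusters summed. With a minimum of 20, 2 of 15 genes were higher and 7 lower, with a median of -0.77. With a minimum of 500, 3 of 5 genes were lower, with a median of -1.28. With assembly clusters summed, 3 of 8 were lower and 1 higher, with a median of -0.68. There the H4.1 genes joined at -0.89, within 2-fold, and HHT2 genes TBIU014972 and TBIU014973 joined low-read genes as 1 cluster at -1.10. The higher cluster, at 2.06, was made of H2B genes that had each missed the minimum. Of 68 ratios of single members under these settings, 0 changed sign and 4 moved by more than the half-width of their counting interval. Centring lowered every log2 ratio by 0.10, which took the methyltransferase and demethylase median to -0.09.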
